A study of Mus musculus with 34 samples.

Results

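The genes described here are 30 genes of cholesterol synthesis and handling in the mouse testis, taken as a named list. The list was chosen with earlier results of these data known. A probe was matched to 29 of the 30, out of 33370 gene names on the array; Idi1, an isomerase of the isoprenoid steps, was not matched and has no value here. By role, 7 measured genes act between acetyl-CoA and the farnesyl and geranylgeranyl diphosphates, 12 act between squalene synthesis and cholesterol, 5 are regulators of the pathway, and 5 move or store cholesterol. Of the 29, 28 were well above background on all 34 arrays, and Acat2 was so on 27 of them.

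The study measured total RNA of C57BL6/j mice of 6 to 8 weeks on one-colour Agilent arrays, in 17 groups of 2 arrays each that the submitters call biological duplicates. Cultured wild-type (WT) Sertoli cells, the somatic cells that nurse germ cells inside the seminiferous tubule, were given retinoic acid (RA) or vehicle; the labels state a dose of 1 mM for 24 h, a unit that could not be checked. Freshly sorted Sertoli cells (by fluorescence-activated sorting) came from Nanos3 knockout mice, labelled N3KO, and from WT mice, and whole testes were also profiled. Seminiferous tubules were dissected into 4 groups of epithelial stages (I-III, then IV-VI, then VII-VIII, and last IX-XII). They came from testes that had received virus 5 days earlier or from untreated ones. The virus was labelled dnRARa, a name for a dominant-negative retinoic acid receptor alpha, or Venus, a fluorescent protein that serves as its control. The labels do not name the sorting marker or the promoter that drives either virus. The third stage group is VI-VIII in the titles of all its samples and VII-VIII in other labels, and VII-VIII is used here. By the titles, it would share stage VI with the group IV-VI. Nanos3 is needed for early germ cells to survive, so that adult knockout testes are known to lack germ cells.

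Cholesterol is built from acetyl-CoA through mevalonate and squalene, in steps whose genes are commonly regulated together. When sterol in the endoplasmic reticulum is low, the protein Scap escorts the transcription factors made by Srebf1 and Srebf2 to the Golgi for activation, and the Insig proteins hold that complex back when sterol is high. In the testis, Leydig cells turn cholesterol into androgen, Sertoli cells take up cholesterol and export it, and germ cells make sterol intermediates that accumulate in the gonad.

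Levels are log2 of the processed probe intensity minus the 75th percentile of the same array, for the brightest probe of each gene, so each unit is a 2-fold difference. Levels are compared between samples of one probe and not between genes. Differences come from limma fits over all genes, with standard errors (SE) and p-values adjusted by the Benjamini-Hochberg method over all genes tested; a gene was called at an adjusted p under 0.05. Sertoli markers were well above background in all 5 testis and Sertoli groups (14 of 14). The log2 of the summed signal of 13 of them was 8.19 to 8.23 in vehicle cultures and 7.91 to 8.1 in sorted N3KO cells. It was 7.49 to 7.83 in sorted WT cells and 6.86 to 6.87 in whole testes. Marker sums below are also the log2 of summed signal, in which the brightest markers weigh most. Sorted WT cells also carried signal of other cell types' markers. The sum of 9 Leydig markers was 11.11 to 11.22 in sorted WT cells against 7.82 to 7.83 in whole testes. That of 8 spermatid markers was 8.8 to 9.47 in sorted WT cells against 11.11 to 11.22 in whole testes. In sorted N3KO cells the Leydig sum was 9.6 to 10.42 and the spermatid sum -1.23 to -0.91, and 4 of the 8 spermatid markers, Tnp2 and Odf1 among them, were not well above background. In cultured cells the Leydig sum was 3.65 to 4.07. The N3KO pair differed widely for several genes described here, the second untreated IX-XII array had a 75th percentile of 10.15 on the log2 scale against 10.69 to 11.03 on the other untreated tubule arrays, and slides and scan days overlap with some groups, as stated beside those comparisons. The number of arrays, 2 in each group, limits the precision.

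Promoter sequence was looked up because sterol-regulated genes are known to share short elements near their starts. RefSeq windows on mouse build GRCm38.p6, each from 250 bases before a gene's start to 50 bases after it, were at hand for 24 of the 30 genes. The full sterol regulatory element lay in 0 of the 24 on either strand, against 0.1% of the 27025 genes with a window. Its core, TCACNCCAC, lay in 1 of 24, Hmgcs1, against 1.44% of all genes. The letters CCAAT lay in 21 of 24, or 87.5%, against 41.06% of all genes with a window and 43.17% of the 10707 of them that were tested between sorted WT cells and testes. The letters GGGCGG lay in 22 of 24, or 91.67%, against 38.2% and 62.87%. TCACGTGA was in 0 of 24 (1.12% of all genes), TGACGTCA in 0 (2.03%) and the direct repeat of the retinoic acid response element, with a spacer of any 5 bases, in 0 (0.01%). A match is a description of these letters in this window and not a bound site, and genes with several starts had several windows. Elements that differ from the letters searched were not counted, so the lack of a match does not mean that a gene lacks a sterol element.

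The windows below are those of Hmgcs1, Insig1 and Cyp51, whose probes disagree further on, and of Msmo1 and Hsd17b7, which were among the genes with the largest differences in sorted cells. They read 5′ to 3′ on the gene's strand, and capitals mark CCAAT on either strand and, in Hmgcs1, the core of the sterol element.
Hmgcs1, chr13:119690101-119690400, plus strand: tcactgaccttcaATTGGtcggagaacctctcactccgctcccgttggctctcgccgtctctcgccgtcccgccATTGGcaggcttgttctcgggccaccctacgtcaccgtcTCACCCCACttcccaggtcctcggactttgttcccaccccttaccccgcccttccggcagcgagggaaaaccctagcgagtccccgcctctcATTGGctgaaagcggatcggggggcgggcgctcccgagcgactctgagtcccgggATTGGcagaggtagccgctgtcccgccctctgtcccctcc
Insig1, chr5:28071162-28071461, plus strand: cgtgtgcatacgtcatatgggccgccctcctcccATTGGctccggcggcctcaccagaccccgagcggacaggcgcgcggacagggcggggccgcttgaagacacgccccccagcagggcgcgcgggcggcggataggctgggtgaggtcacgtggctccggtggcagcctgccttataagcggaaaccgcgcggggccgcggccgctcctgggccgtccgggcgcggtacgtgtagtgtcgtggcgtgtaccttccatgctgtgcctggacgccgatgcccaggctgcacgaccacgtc
Cyp51, chr5:4104648-4104947, minus strand: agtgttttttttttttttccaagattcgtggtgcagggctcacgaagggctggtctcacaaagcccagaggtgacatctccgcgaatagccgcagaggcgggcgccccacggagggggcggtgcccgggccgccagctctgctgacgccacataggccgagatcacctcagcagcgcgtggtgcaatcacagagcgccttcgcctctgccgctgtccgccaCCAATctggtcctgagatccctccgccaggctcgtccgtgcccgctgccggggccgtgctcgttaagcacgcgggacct
Msmo1, chr8:64733529-64733828, minus strand: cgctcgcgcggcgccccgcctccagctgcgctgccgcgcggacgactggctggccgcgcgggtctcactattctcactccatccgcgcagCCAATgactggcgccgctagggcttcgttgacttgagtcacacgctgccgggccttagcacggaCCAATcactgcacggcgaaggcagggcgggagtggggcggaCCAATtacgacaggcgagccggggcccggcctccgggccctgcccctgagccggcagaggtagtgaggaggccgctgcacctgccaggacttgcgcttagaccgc
Hsd17b7, chr1:169969156-169969455, minus strand: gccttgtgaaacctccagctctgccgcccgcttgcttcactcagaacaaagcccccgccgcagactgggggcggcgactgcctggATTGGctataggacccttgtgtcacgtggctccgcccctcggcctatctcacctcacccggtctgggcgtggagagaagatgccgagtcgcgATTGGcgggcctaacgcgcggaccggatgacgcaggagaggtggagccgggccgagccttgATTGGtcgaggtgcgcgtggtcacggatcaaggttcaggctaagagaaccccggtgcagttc
Hmgcs1 holds the core and several CCAAT boxes, and Msmo1 and Hsd17b7 also hold more than 1, while Insig1 and Cyp51 hold 1 each.

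Sorted WT Sertoli cells carried far more signal of most cholesterol genes than whole testes did. Of 29 genes, 22 were higher and 3 lower (Lbr, Insig1 and Insig2), where the background share of all genes called was 79.1% in either direction, 38.2% higher and 40.9% lower. The median difference of the 29 was 2.52, against -0.07 over all 22910 genes tested. Whole testes and sorted WT cells shared 1 slide. In bulk samples such as whole testes, fewer cells of a type and less RNA per cell cannot be told apart. Of the Sertoli markers, 8 of 14 were called higher in sorted WT cells (median difference 0.77), against 9 of 9 Leydig markers (4.25) and 5 of 6 endothelial markers (3.48). These rose with the cholesterol genes, with an endothelial sum of 4.1 to 4.67 in sorted WT cells against 0.67 to 0.69 in testes, and their part in the result was not tested.

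Among the early enzymes, Acat2, which makes acetoacetyl-CoA, had levels of 1.43 and 1.95 in sorted WT cells, against -3.12 and -2.79 in whole testes. Hmgcs1, the synthase that makes HMG-CoA, had 5.85 and 5.72 in sorted WT cells, against 2.08 and 2.16 in testes. The groups were far apart for both, with differences of 4.65 (SE 0.21, limma adjusted p = 2.85e-06) and 3.67 (SE 0.14, limma adjusted p = 1.85e-06). Mevalonate kinase Mvk was higher by 1.69, phosphomevalonate kinase Pmvk by 0.92, the decarboxylase Mvd by 2.05 and farnesyl diphosphate synthase Fdps by 2.52. The size for Pmvk depended on the probe: its other probe had 4.12 and 4.05 in sorted WT cells, against 1.34 and 1.36 in testes. Ggps1, which diverts farnesyl diphosphate toward protein prenylation, was the early enzyme that was not called, at -0.31 and -0.39 in sorted WT cells against -0.18 and -0.05 in testes (difference -0.24, SE 0.13, limma adjusted p = 0.139).

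The late enzymes split. Squalene synthase Fdft1, the first committed step to sterol, was at 4.05 and 4.04 in sorted WT cells against 4.9 and 4.82 in testes; it was lower on both arrays but not called (-0.81, SE 0.33, limma adjusted p = 0.0559). Squalene epoxidase Sqle was higher by 1.08, lanosterol synthase Lss by 2.83, and lanosterol demethylase Cyp51 was not called (0.37, SE 0.33, limma adjusted p = 0.33). Msmo1, Hsd17b7 and Dhcr7 had the largest differences of the late enzymes. The methyl oxidase Msmo1 had 6.59 and 6.69 in sorted WT cells, against 2.23 and 2.2 in testes, a difference of 4.43 (SE 0.13, limma adjusted p = 1.32e-06). Hsd17b7, a ketosteroid reductase of the same demethylation, had 2.22 and 2.22 in sorted WT cells, against -1.87 and -2.25 in testes, a difference of 4.28 (SE 0.5). Dhcr7, the last reductase of the pathway, had 6.39 and 6.34 in sorted WT cells, against 2.2 and 2.27 in testes, a difference of 4.13 (SE 0.18). Ebp, the sterol isomerase, was higher by 3.42, the demethylation enzyme Nsdhl by 3.09 and the desaturase Sc5d by 2.95.

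The 2 genes for sterol C14 reductase activity went opposite ways. Tm7sf2 had 4.27 and 4.44 in sorted WT cells, against 0.58 and 0.67 in testes (3.73, SE 0.15, limma adjusted p = 1.96e-06). Lbr, which is also a receptor for lamin B in the nuclear envelope, had -0.24 and -0.56 in sorted WT cells, against 0.97 and 0.99 in testes (-1.39, SE 0.12, limma adjusted p = 4.33e-05). Neither pair of groups overlapped.

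Among the regulators, Srebf1 and Scap were higher and both Insig genes lower by their brightest probes. Srebf1, better known for driving fatty acid genes, had 3.84 and 3.99 in sorted WT cells, against 1.24 and 1.23 in testes (2.68, SE 0.11). Scap had 5.61 and 5.85 in sorted WT cells, against 2.63 and 2.66 in testes (3.08, SE 0.12). Srebf2, the main driver of cholesterol genes, was not called, with 0.47 and 0.89 in sorted WT cells against -0.9 and -1.0 in testes (1.63, SE 0.68, limma adjusted p = 0.062). Insig2 had 2.08 and 2.08 in sorted WT cells, against 2.89 and 2.89 in testes (-0.81, SE 0.22).

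All 5 genes of transport and storage were higher in sorted WT cells. The efflux pump Abca1 had 3.89 and 4.65 in sorted WT cells, against 0.93 and 0.86 in testes (3.38, SE 0.3). The lipoprotein receptor Scarb1, which takes up cholesterol esters from HDL, had 5.59 and 5.39 in sorted WT cells, against 3.06 and 3.11 in testes (2.4, SE 0.37). The sterol carrier Stard4 was higher by 2.92, the esterifying enzyme Soat1 by 2.48 and the efflux pump Abcg1 by 2.36. Of neighbouring lists, 7 of 7 genes that turn cholesterol into steroid hormone were higher (median 4.25), with Cyp11a1, the side-chain cleavage enzyme, higher by 4.43. That list overlaps with the Leydig markers, and Cyp11a1 and Hsd3b6 are on both. Of 13 tested fatty acid genes, 11 were higher and 1 lower. Of 26 tested genes of other sterol handling 17 were higher and 7 lower, and of 8 genes of the isoprenoid branch 2 were higher and 4 lower.

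**Figure D1:**
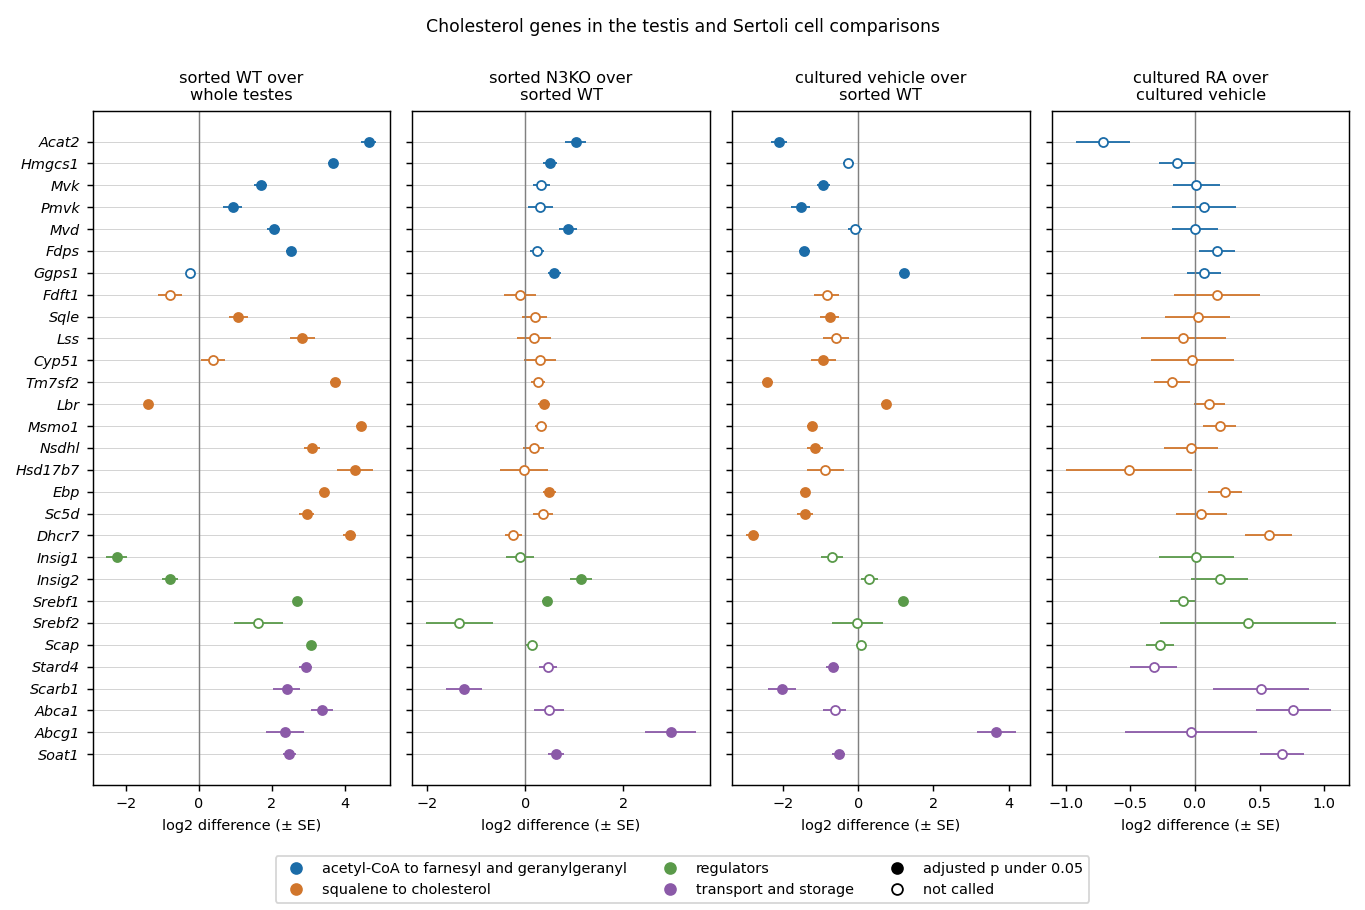
Log2 difference (x axis, each panel with its own scale) of the 29 measured genes in 4 comparisons, with error bars of 1 SE, filled where called. The left panel runs from Insig1 at -2.26 to Acat2 at 4.65, and the right panel, RA over vehicle, has no filled point.

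Sorted N3KO cells differed from sorted WT cells in fewer of these genes, and mostly upward. Of 29 genes, 10 were higher and 1 lower, against 48.4% of all genes called in either direction, 25.6% higher and 22.8% lower; the median of the genes was 0.32 and that of all 21477 genes 0.06. The genotypes lay on separate slides, so slide and genotype cannot be told apart. The count moved with the scaling: with arrays set to equal medians 23 genes were higher and 0 lower while the median of all genes stood at 0.63, and with normexp background correction 5 were higher and 1 lower. The medians moved too. With quantile scaling the median of the genes was 0.24 and that of all genes 0.25, and with normexp 0.23 and 0.26, so the genes did not exceed all genes there. When only these 4 arrays were fitted, 1 was higher and 0 lower, and without N3KO replicate 2 the count of higher genes was 20. Without N3KO replicate 1, 8 were lower, and without either WT array 0 were lower.

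The largest difference was that of Abcg1, with 0.91 and 2.79 in N3KO cells against -1.01 and -1.22 in WT cells (2.96, SE 0.52, limma adjusted p = 0.0034; 0.0467 when only these arrays were fitted, and between 2.9e-06 and 0.0467 over the alternatives). The groups did not overlap, but the N3KO arrays were far apart. Insig2 had 2.85 and 3.59 in N3KO cells against 2.08 and 2.08 in WT cells (1.14, SE 0.22, limma adjusted p = 0.00526). Acat2 had 2.55 and 2.89 in N3KO cells against 1.43 and 1.95 in WT cells (1.03, SE 0.21, limma adjusted p = 0.00668). Scarb1 was the gene that fell, with 4.88 and 3.59 in N3KO cells against 5.59 and 5.39 in WT cells (-1.25, SE 0.37, limma adjusted p = 0.0284), and it was not called without either WT array. The other called genes were Mvd (0.87), Soat1 (0.63), Ggps1 (0.59), Hmgcs1 (0.5), Ebp (0.49), Srebf1 (0.45) and Lbr (0.38). Srebf2 and Hsd17b7 were not called and their N3KO arrays lay far apart, with 0.57 and -1.89 for Srebf2 and 3.08 and 1.32 for Hsd17b7 in N3KO cells, against 0.47 and 0.89, and 2.22 and 2.22, in WT cells. The 5 measured macrophage markers summed to 4.48 to 6.34 in N3KO cells against 1.71 to 2.66 in WT cells. Of 14 Sertoli markers, 7 were called higher and 1 lower, and 5 of 9 Leydig markers fell. Of 7 steroid hormone genes, 3 fell and 0 rose, and those 3, Cyp11a1, Star and Hsd3b1, are also Leydig markers. The part of these cells was not tested. Across all 17 groups, 17 of the 29 genes had their highest group mean in N3KO cells and 3 in sorted WT cells, as a description.

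**Figure D2:**
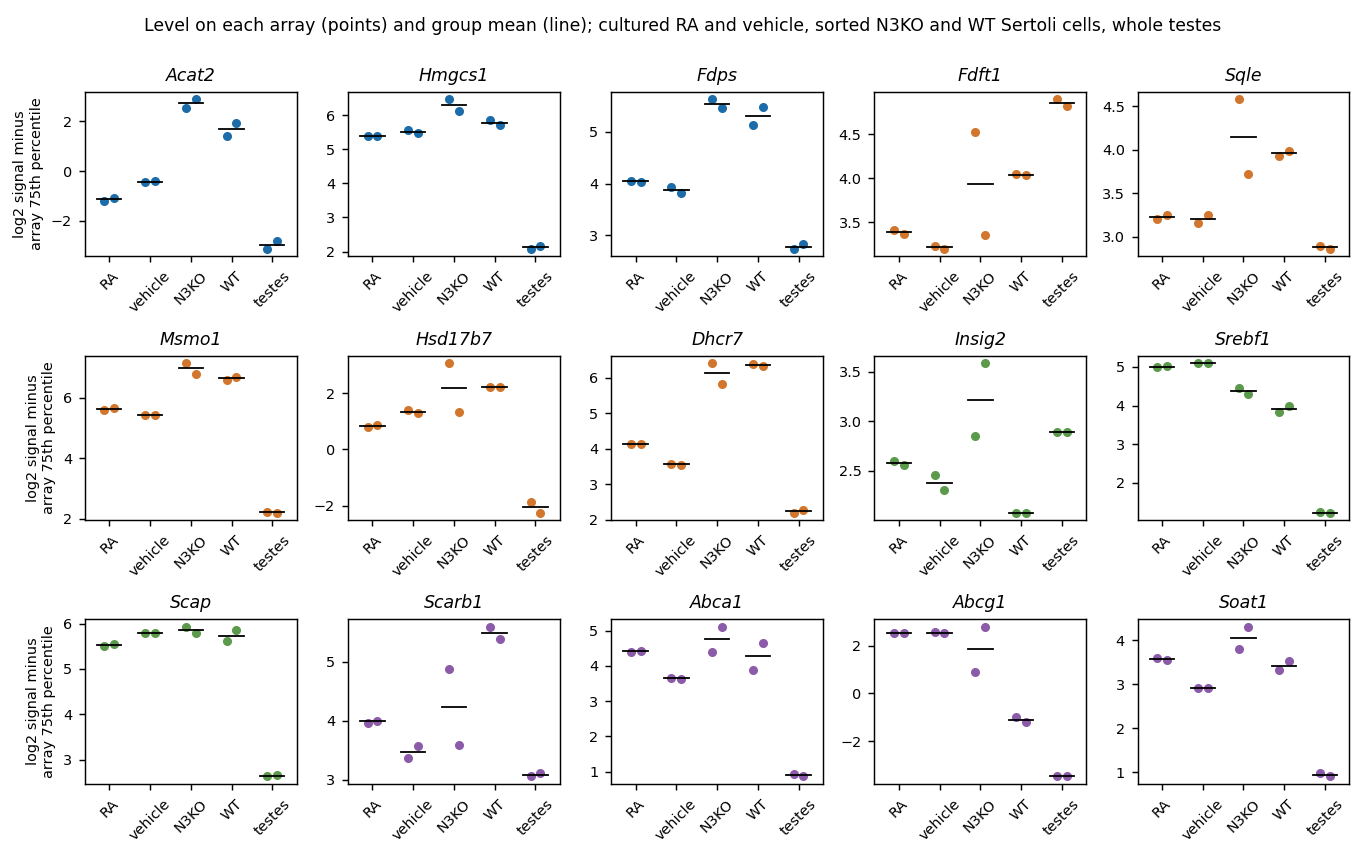
Level on each of the 10 testis and Sertoli arrays (points; y axis, log2 signal minus the array's 75th percentile) with group means as lines, for 15 genes in RA and vehicle cultures, N3KO and WT sorted cells and whole testes. Whole testes lie lowest for most genes but highest for Fdft1, and the N3KO arrays spread widely for Hsd17b7, Scarb1 and Abcg1.

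In culture, more of the genes were called lower than higher against sorted cells, in comparisons in which most genes of the array were called. Cultured vehicle cells over sorted WT cells gave 4 genes higher and 15 lower, where 74.7% of all genes were called, 31.7% higher and 43% lower; the median of the genes was -0.75 and of all 22436 genes -0.22. With arrays set to equal medians the count was 8 higher and 9 lower. The median of the 29 genes then turned positive, at 0.17, with that of all genes at 0.7. Over sorted N3KO cells, 3 were higher and 18 lower (69.2% of all genes called, 33.7% higher and 35.5% lower; medians -0.95 and -0.01). Cultured and sorted cells lay on separate slides and scan days, so these cannot be told apart from culture. Over WT cells, 9 of 9 Leydig (median -8.11), 8 of 8 spermatid (-10.12), 6 of 6 endothelial (-4.54) and 5 of 5 macrophage markers (-3.72) fell as well, while 10 of 14 Sertoli markers rose and 2 fell (1.9); their part was not tested. Both comparisons share the vehicle arrays.

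Of the 15 lower genes, 8 were late enzymes, 4 early enzymes and 3 of transport and storage. Dhcr7 had 3.58 and 3.55 in vehicle cultures, against 6.42 and 5.84 in N3KO cells and 6.39 and 6.34 in WT cells (-2.8 over WT, SE 0.18, limma adjusted p = 1.25e-05). Tm7sf2 had 1.92 and 1.96 in vehicle cultures against 4.27 and 4.44 in WT cells (-2.41, SE 0.15, limma adjusted p = 9.17e-06). Acat2 had -0.44 and -0.39 in vehicle cultures against 1.43 and 1.95 in WT cells (-2.11, SE 0.21). All 3 were lower on both cultured arrays than on any sorted array. Scarb1 was lower (-2.01, SE 0.37), and Pmvk, Fdps, Sc5d, Ebp, Msmo1, Nsdhl, Cyp51, Mvk, Sqle, Stard4 and Soat1 lay between -1.52 and -0.52; with arrays set to equal medians Soat1 (0.4), Sqle (0.17) and Stard4 (0.24) turned positive and were not called. Stard4 depended on the probe: its brightest probe was lower (-0.68), its other probes were called higher (1.21 and 1.0), and their mean was higher by 0.51 (limma adjusted p = 0.0121). Over N3KO cells the brightest probe of Stard4 was lower (-1.15) and another was called higher (0.49). Hmgcs1 (-0.26), Mvd (-0.09), Scap (0.07) and Srebf2 (-0.02) were not called over WT cells.

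The 4 genes that rose were of different roles. Abcg1 had 2.57 and 2.53 in vehicle cultures against -1.01 and -1.22 in WT cells (3.67, SE 0.52, limma adjusted p = 0.000577), and against N3KO cells it was not called. Srebf1 had 5.1 and 5.09 in vehicle cultures, against 4.45 and 4.29 in N3KO cells and 3.84 and 3.99 in WT cells (1.18 over WT, SE 0.11). Ggps1 (1.22) and Lbr (0.73) also rose. Of 13 fatty acid genes, 1 rose and 10 fell against WT cells, so Srebf1 rose while most genes on that list fell.

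RA produced no call among the 29 genes: 0 were called by limma, 5 were under an unadjusted p of 0.05, and 5.47% of all genes were called, 3.55% higher and 1.92% lower. The median of the genes was 0.02. The transport and storage genes Abca1 and Soat1 had the largest positive differences. Abca1 had 4.39 and 4.43 with RA against 3.67 and 3.63 with vehicle (0.76, SE 0.29, limma adjusted p = 0.235). Soat1 had 3.58 and 3.54 with RA against 2.9 and 2.9 with vehicle (0.67, SE 0.17, limma adjusted p = 0.0789). Dhcr7 had 4.13 and 4.14 with RA against 3.58 and 3.55 with vehicle (0.57, SE 0.18), and Scarb1 had 3.97 and 4.0 with RA against 3.38 and 3.57 with vehicle (0.51, SE 0.37). Acat2 had -1.18 and -1.08 with RA against -0.44 and -0.39 with vehicle (-0.71, SE 0.21), and Hsd17b7 had 0.81 and 0.86 with RA against 1.4 and 1.29 with vehicle (-0.51, SE 0.49). None of these groups overlapped. Hsd17b7 depended on the probe: its other probe had -0.02 and -0.02 with RA against -0.13 and -0.12 with vehicle. The other probes of Soat1 and Dhcr7 were higher with RA, like their brightest probes. The error was that shared over all 10 arrays, which includes the wide N3KO pair. With these 4 arrays fitted alone, 8 genes were higher and 4 lower, among them Abca1 (limma adjusted p = 0.00206) and Acat2 (0.00374), beside 35.8% of all genes called. On the list of other sterol handling genes, Nceh1, a cholesterol ester hydrolase, was called higher by 1.63 in the fit of 10 arrays (SE 0.09, limma adjusted p = 0.000309).

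Probes of one gene did not always move together, and Hmgcs1 and Insig1 were called both ways in sorted WT cells over testes, of 15 genes with several probes. Hmgcs1's brightest probe was higher by 3.67 in sorted WT cells than in testes and its other probe was lower (-1.4, limma adjusted p = 1.59e-05). Insig1's brightest probe had -1.41 and -1.9 in sorted WT cells against 0.65 and 0.56 in testes (-2.26, SE 0.29), while its other probe had -0.23 and -0.87 in sorted WT cells against -4.29 and -4.11 in testes (3.65, SE 0.21), and the mean of the probes was higher by 0.7. Cyp51's brightest probe was not called, while another had 1.79 and 1.43 in sorted WT cells against -2.66 and -2.84 in testes (4.36, SE 0.24). In tubules, the second probe of Hmgcs1 was higher in VII-VIII than in IV-VI by 1.62 with Venus and 1.25 untreated, while its brightest probe was not called (-0.59 and -0.27). The brightest probe of Insig1 was higher by 2.13 with Venus and 1.77 untreated, and its second probe was not called (-0.2 and -0.22). Stard4's brightest probe rose in VII-VIII (0.77 with Venus, 0.65 untreated) while its other probes fell (-1.0 and -1.06 with Venus, -0.88 and -0.99 untreated). Nsdhl's probes were also called both ways at that step in untreated tubules. Which transcripts each probe reads was not tested.

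**Figure D3:**
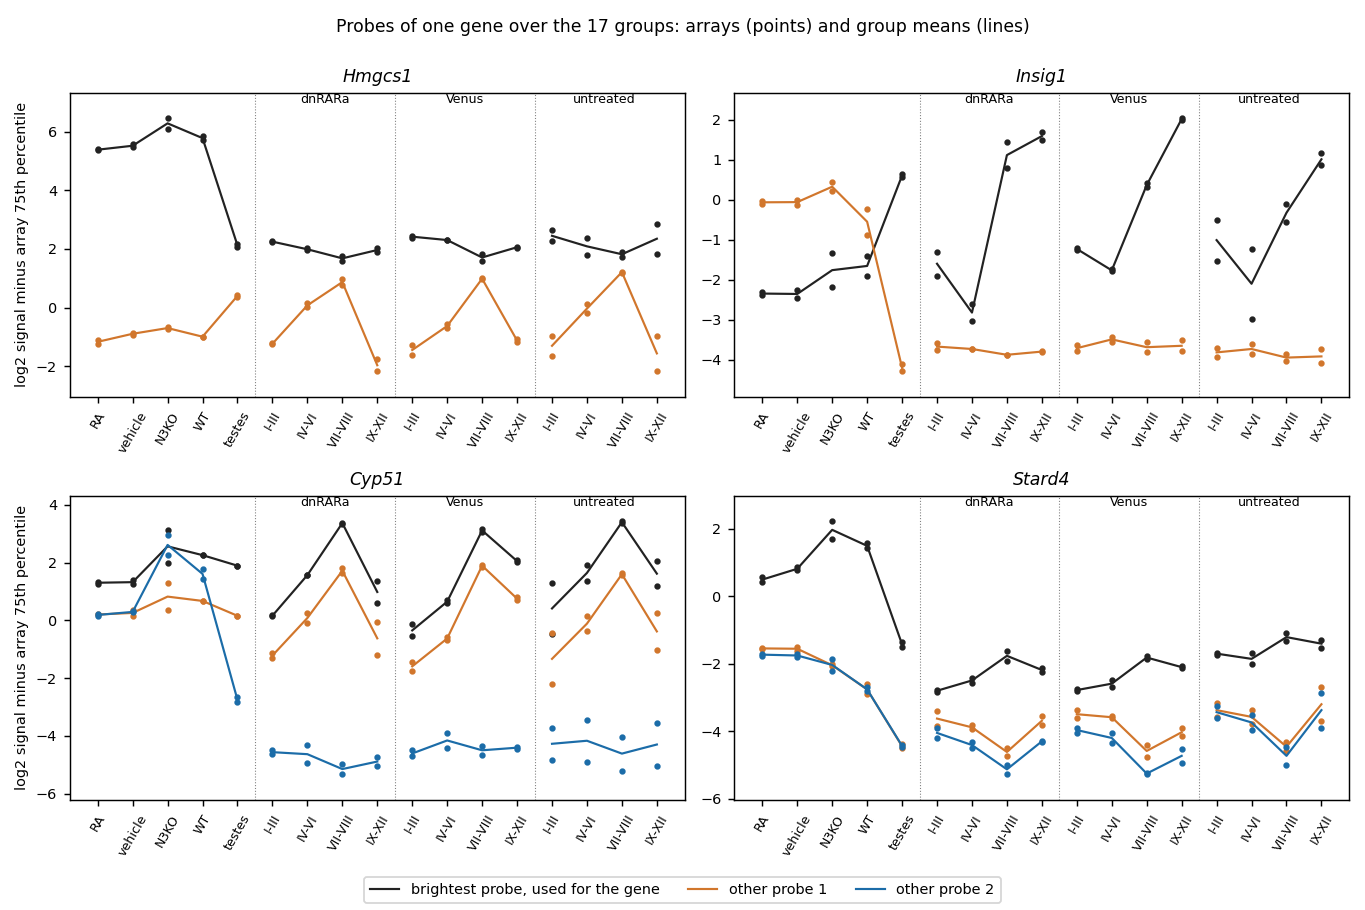
Levels by probe for Hmgcs1, Insig1, Cyp51 and Stard4 over the 17 groups (y axis, log2 signal minus the array's 75th percentile; points are arrays, lines group means, the darkest colour the brightest probe). The probes of Insig1 cross between sorted cells and testes, and the second probe of Hmgcs1 peaks at VII-VIII in each kind of tubule.

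Across stages, the genes of the pathway did not move as one. The F test over 4 stage groups called 14 of 29 genes in dnRARa tubules (55% of all genes), 13 of 29 in Venus tubules (53.9%) and 14 of 28 in untreated tubules (69.1%). The difference between these shares was not tested. There were 12 genes called in all 3 kinds of tubule: Pmvk, Fdps, Ggps1, Sqle, Cyp51, Lbr, Insig1, Insig2, Srebf2, Stard4, Scarb1 and Soat1. Another 12 were called in none by their brightest probes: Acat2, which was not tested in untreated tubules, Hmgcs1, Mvk, Mvd, Fdft1, Lss, Msmo1, Hsd17b7, Dhcr7, Scap, Abca1 and Abcg1. The second probe of Hmgcs1 did vary, and was highest in VII-VIII in each kind. Its means there were 1.21 untreated, 0.98 with Venus and 0.87 with dnRARa, against -1.57, -1.13 and -1.97 in IX-XII. Of the 12 called in all, 9 had the same highest stage group in each kind by their brightest probes. That group was VII-VIII for Fdps, Cyp51, Lbr, Stard4 and Scarb1, IX-XII for Pmvk, Insig1 and Soat1, and I-III for Sqle. The other probe of Pmvk was highest in VII-VIII in each kind, at 1.37 untreated, 1.06 with Venus and 1.14 with dnRARa. The other probes of Stard4 were lowest in VII-VIII in each kind. Insig1's other probe varied little over stages. Its group means were -3.94 to -3.73 untreated, -3.71 to -3.49 with Venus and -3.88 to -3.67 with dnRARa. Another probe of Cyp51 did not peak in VII-VIII, and its remaining probe did.

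The step from IV-VI to VII-VIII held the most calls among the untreated steps, with 11 genes higher and 2 lower in VII-VIII (42.3% of all genes, 22.4% higher and 19.9% lower), and in Venus tubules 6 were higher and 1 lower (33.1%, 16% and 17.1%). Among untreated tubules VII-VIII and IX-XII shared a slide, and I-III and IV-VI each lay on another, so every untreated step except VII-VIII to IX-XII cannot be told apart from slide. The Venus stages shared a slide and a scan day within each replicate; with the replicate number as a block, 3 genes were lower in Venus tubules at this step. Fdps had 3.97 and 3.88 in untreated VII-VIII tubules against 2.16 and 1.9 in IV-VI (1.9, SE 0.18, limma adjusted p = 2.2e-06). In Venus tubules it had 3.68 and 3.38 in VII-VIII against 1.25 and 1.52 in IV-VI (2.15, SE 0.19). Cyp51 had 3.44 and 3.36 in untreated VII-VIII tubules against 1.92 and 1.37 in IV-VI (1.76, SE 0.42), and in Venus tubules 3.16 and 3.07 in VII-VIII against 0.7 and 0.6 in IV-VI (2.46, SE 0.42). Neither gene's groups overlapped at this step. The higher count in untreated tubules was 6 without IV-VI replicate 2 and 7 without VII-VIII replicate 1, and the lower count in Venus tubules was 2 without IV-VI replicate 1 and 3 without VII-VIII replicate 2.

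Scarb1, the HDL receptor, had 2.34 and 2.45 in untreated VII-VIII tubules against 1.19 and 1.43 in IV-VI (1.09, SE 0.15, limma adjusted p = 4.36e-05), and rose by 1.51 in Venus tubules. Sqle went the other way, with 2.56 and 2.35 in VII-VIII against 3.28 and 3.22 in IV-VI (-0.79, SE 0.14), and fell by 0.76 in Venus tubules. Srebf2 had -2.05 and -1.91 in untreated VII-VIII against -0.69 and -0.68 in IV-VI (-1.3, SE 0.3, limma adjusted p = 0.00293). In Venus tubules Srebf2 was not called at this step (-0.81, SE 0.31, limma adjusted p = 0.0569). Soat1 had 1.16 and 1.98 in untreated IX-XII tubules against -0.15 and 0.17 in VII-VIII (1.57, SE 0.24) and rose by 1.47 in Venus tubules.

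The remaining steps were called for fewer genes in untreated tubules, but in Venus tubules only the step from I-III to IV-VI was. From VII-VIII to IX-XII, 4 were higher and 4 lower in untreated tubules (49.7% of all genes, 24.8% higher and 24.9% lower) and 4 higher and 3 lower in Venus tubules (36.5%, 18.7% and 17.8%). From IX-XII to I-III, 2 were higher and 5 lower in untreated tubules (34.6%, 15.1% and 19.5%) and 2 higher and 6 lower in Venus tubules (38.4%, 19.2% and 19.1%). From I-III to IV-VI, 2 were higher and 1 lower in untreated tubules (22.3%, 11.7% and 10.6%), and in Venus tubules 0 were called by limma, 2 were under an unadjusted p of 0.05 and 0% of all genes were called. With the replicate number as a block, 7 were lower in Venus tubules from VII-VIII to IX-XII, and 4 were higher in untreated tubules from I-III to IV-VI. Single arrays moved these counts. From VII-VIII to IX-XII, 7 were lower without IX-XII replicate 1 and 2 were higher without VII-VIII replicate 1, and with Venus 1 was higher without VII-VIII replicate 2. From IX-XII to I-III, 5 were higher and 8 lower without IX-XII replicate 1, and 1 was lower without I-III replicate 2. From I-III to IV-VI, 0 were higher without I-III replicate 2 or without either IV-VI array, and 2 were lower without I-III replicate 2 or IV-VI replicate 1.

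**Figure D4:**
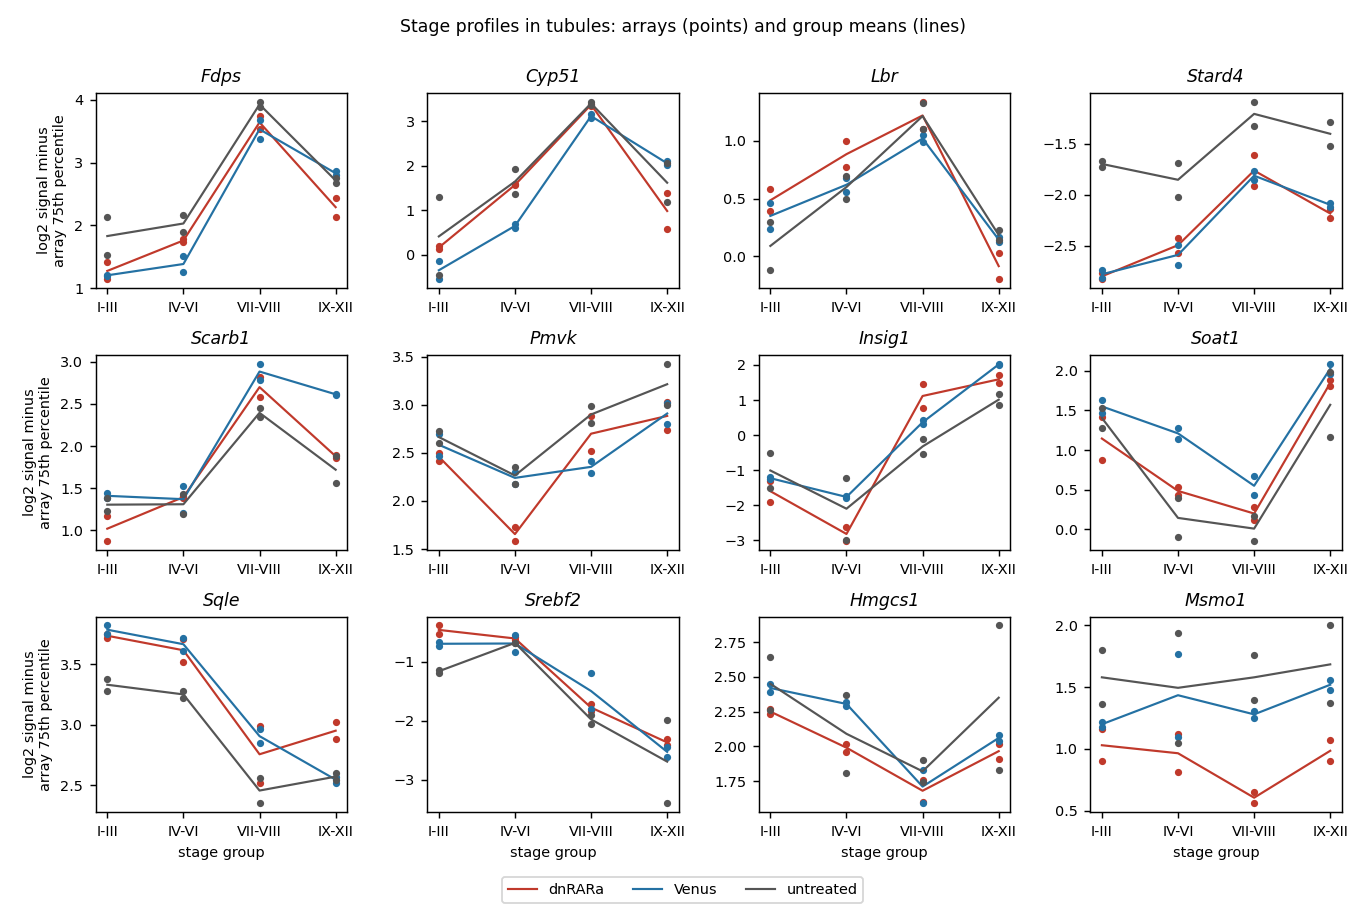
Level against stage group (x axis; y axis, log2 signal minus the array's 75th percentile) for 12 genes, with arrays as points and group means as lines, in dnRARa, Venus and untreated tubules. By their brightest probes, Fdps, Cyp51, Lbr, Stard4 and Scarb1 peak at VII-VIII in all 3 kinds, while Sqle and Srebf2 have lower means in VII-VIII than in IV-VI.

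The dnRARa virus went with slightly lower levels of a few genes when the 4 stage groups were averaged. Of 29 genes, 0 were higher and 5 lower than with Venus, where 12.3% of all genes were called, 8.28% higher and 3.99% lower. Scarb1 fell by 0.32 (SE 0.08, limma adjusted p = 0.0124), Soat1 by 0.42 (SE 0.12), Msmo1 by 0.46 (SE 0.14, limma adjusted p = 0.0484), Srebf1 by 0.25 and Mvd by 0.23. The median of the genes was -0.15 and of all genes 0.02. Of other lists, 3 of 5 peritubular myoid markers fell (median -0.47), and 2 of 14 Sertoli markers rose and 2 fell (-0.08). Of the steroid hormone genes 2 of 7 fell (-0.69), and 1 of 8 tested Leydig markers fell (-0.53). Those 2 lists overlap, and Cyp11a1 was called lower on both. The part of these lists was not tested. No slide held both viruses: each lay on 2 slides of its own, 1 for each replicate number, so that slide could enter only as a random block. The replicate numbers match 2 scan days that the viruses share; within the first day 0 of the 29 genes were called, and within the second Msmo1 was (-0.65, limma adjusted p = 0.0499).

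The count of lower genes was 0 with normexp correction, 1 with no detection filter, 1 with slide as a random block and 10 with only the virus arrays fitted. Leaving out any 1 array gave 1 to 5. Scarb1 was called in all of these settings except normexp (limma adjusted p = 0.175), with differences of -0.37 to -0.28.

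Within single stage groups, 1 gene was called. Scarb1 in IX-XII had 1.9 and 1.86 in dnRARa tubules against 2.62 and 2.61 in Venus tubules (-0.73, SE 0.15, limma adjusted p = 0.0116), where 4.69% of all genes were called, 3.16% higher and 1.53% lower, and it was not called when any of these 4 arrays was left out. With the replicate number as a block, 2 genes were lower in IX-XII. The Leydig sum in IX-XII was 4.93 to 5.01 in dnRARa tubules against 5.27 to 5.44 in Venus tubules, and the myoid sum was 4.36 to 4.64 in dnRARa tubules against 4.74 to 4.86 in Venus tubules. The Sertoli sum was 7.11 to 7.42 in dnRARa tubules against 6.79 to 6.81 in Venus tubules. The part of these cells was not tested. In VII-VIII, where Scarb1 had 2.82 and 2.58 in dnRARa tubules against 2.79 and 2.98 in Venus tubules, the groups overlapped. In I-III, 0 genes were called by limma and 1 was under an unadjusted p of 0.05 (0.00896% of all genes called). In IV-VI, 0 were called and 5 were under that p (3.34% of all genes, 1.53% higher and 1.8% lower). In VII-VIII, 0 were called and 2 were under it (1.54%, 0.74% higher and 0.796% lower). The F test of whether the virus effect differed between stages called 0 of 29 genes, with 4 under an unadjusted p of 0.05 and 0.746% of all genes called. Fdps in dnRARa tubules also peaked in VII-VIII, with 3.54 and 3.74 there against 1.74 and 1.78 in IV-VI.

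**Figure D5:**
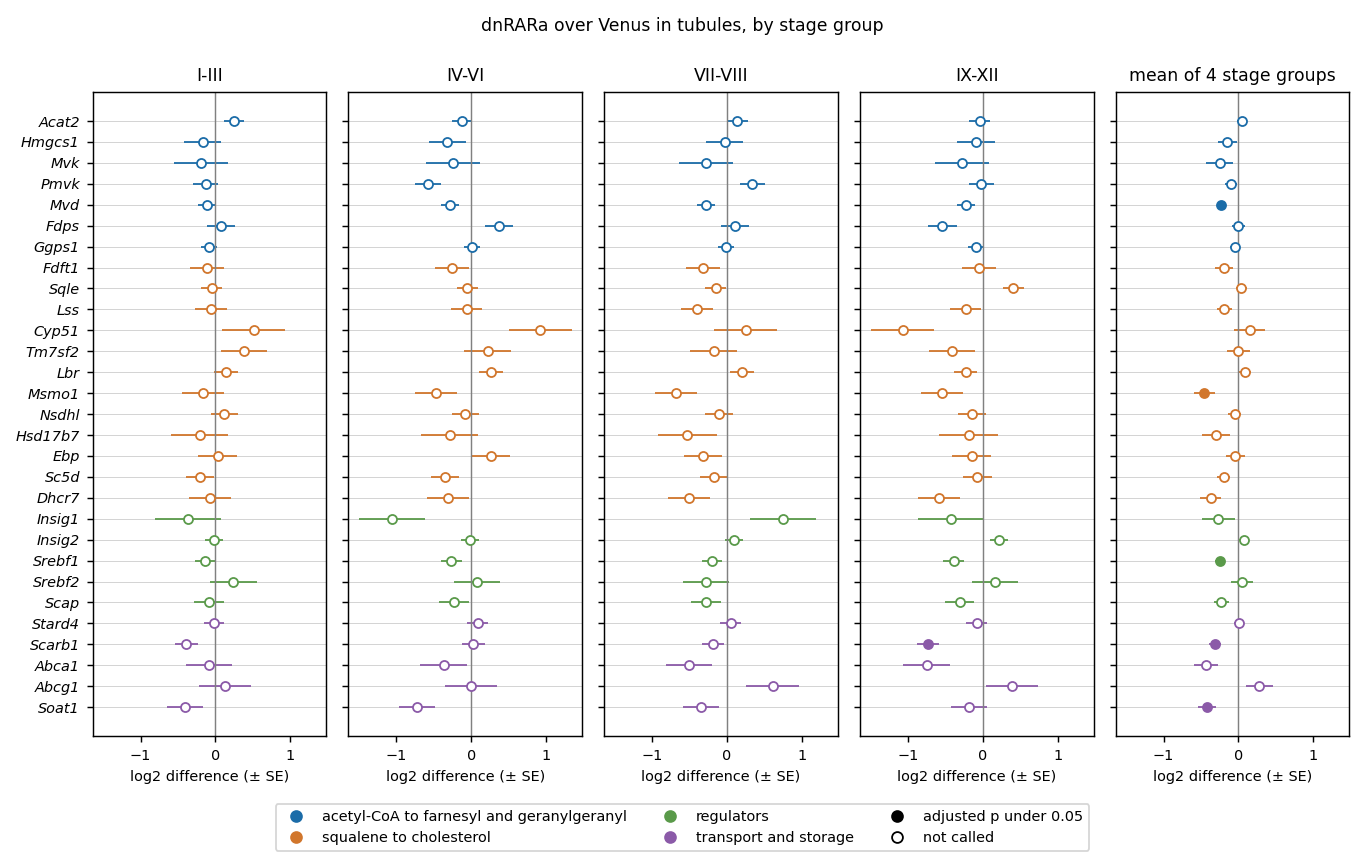
Log2 difference (x axis, dnRARa over Venus) of the 29 genes in each stage group and in their mean, with error bars of 1 SE, filled where called. A single point, Scarb1 in IX-XII at -0.73, is filled in the stage panels and 5 in the panel of means.

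Venus tubules differed from untreated tubules in 11 genes that were higher and 7 lower (67% of all genes called, 36.3% higher and 30.6% lower), and they lay on other slides and scan days, so virus injection cannot be told apart from these. Acat2, counted among the higher genes, had -3.41 to -3.08 on the 8 Venus arrays and was well above background on 1 of the 8 untreated arrays, so no size of difference is given. Nsdhl was lower (-1.2, SE 0.09). Probes of Dhcr7 and Soat1 were called both ways, and Soat1, higher by its brightest probe, was lower by the mean of its probes (-0.41, limma adjusted p = 0.00301). In the same comparison 11 of 14 Sertoli (median 0.62), 5 of 5 peritubular myoid (0.79) and 3 of 5 macrophage markers (1.13) rose and 4 of 7 spermatocyte markers fell (-0.33); their part was not tested.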

How the data were processed

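RNA of 34 samples was hybridised to 34 one-colour arrays, 1 sample each. Per the submitters' processing notes, images were quantified with Agilent Feature Extraction 9.5 (9.5.3.1 per the file headers); the deposited scanner intensity used here is the processed signal, already background-corrected, and the series' value table holds the same intensity (ratio 1.0). Control spots (1639 of 45018) and flagged outlier spots (32 to 274 an array) were left out, replicate spots averaged, log2 taken and each array's 75th percentile subtracted. Between 54.89% and 74.42% of spots were well above background.

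Of 41174 probes, 22951 were named by accession and 67 by symbol through RefSeq, and 18156 kept their identifier. The probe of highest mean signal stood for a gene. A gene entered a comparison if some group in it had both arrays well above background. Fits used limma 3.58.1 (R 4.3.3), in one model of the 10 testis and Sertoli arrays and one of the 24 tubule arrays. The fit was run on simulated data for RA over vehicle and for untreated VII-VIII over IV-VI only. That noise was independent between arrays, so the simulation does not cover shared slides or scan days. Alternatives were quantile and median scaling, normexp (offset 50), no detection filter, the mean of a gene's probes, only the arrays compared, the replicate number or slide as a block, and leaving out each array.

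All listed genes were eligible to be named, with full statistics for at most 6 in each direction; the members and lists were chosen with earlier results of these data known. Venus stage steps, single probes and values within scan days were added after seeing the data. Whether same-numbered arrays deviate together from their group means was checked: the median correlation was -0.015 among testis and Sertoli groups, and between stages it was 0.28 to 0.73 in untreated, 0.02 to 0.46 in Venus and 0.34 to 0.68 in dnRARa tubules. In virus tubules the number also marks slide and scan day, per the file headers, so the numbers pair those arrays; in untreated tubules, with 2 arrays a group, the pairing is a hint from the data. Counts with the number as a block stand beside the tubule results that they move.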

Additional observations from a re-analysis of the deposited data

How the results depend on the processing

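Of 321 counts of genes under alternatives other than leaving out an array, 270 stayed within 1.5 times the count reported, and of 2020 values of called genes 248 lost the call and 10 changed sign; the cause was not tested. With median scaling, 5 genes were lower in sorted WT cells over testes, 23 higher and 0 lower in N3KO over WT, 8 higher and 9 lower in vehicle cultures over WT, 0 higher and 2 lower in untreated IV-VI over I-III, and 4 lower in Venus VII-VIII over IV-VI (3 with quantile scaling, 2 with slide as a fixed block). With quantile scaling or the mean of probes, 1 gene was higher with RA. With normexp, 5 were higher in N3KO over WT, 4 lower in untreated IV-VI over I-III, 1 lower in VII-VIII over IV-VI, 7 lower in IX-XII over VII-VIII, 3 lower in I-III over IX-XII, 0 lower with dnRARa on average and in IX-XII, and 2 higher in Venus IX-XII over VII-VIII. With no detection filter, 0 were higher in untreated IV-VI over I-III, 3 lower in I-III over IX-XII and 1 lower with dnRARa; slide as a random block also left 1 lower. With only the arrays compared, which leaves fewer samples for the error, N3KO over WT gave 1 higher and 0 lower, vehicle over N3KO 1 higher, RA 8 higher and 4 lower, the untreated F test 9, untreated IV-VI over I-III 0 and 0, VII-VIII over IV-VI 7 higher, IX-XII over VII-VIII 2 higher, I-III over IX-XII 0 and 0, dnRARa 10 lower, its interaction 1, Venus VII-VIII over IV-VI 4 lower, IX-XII over VII-VIII 7 lower and I-III over IX-XII 5 higher. With the mean of probes, 1 was lower in untreated VII-VIII over IV-VI, 1 higher in I-III over IX-XII, 1 lower with dnRARa in IV-VI and 4 in IX-XII, and 2 and 5 lower in Venus VII-VIII over IV-VI and IX-XII over VII-VIII.

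Values that changed sign were, with the mean of probes, Insig1 in sorted WT over testes (0.7), Stard4 in vehicle over WT (0.51), Nsdhl (-0.12) and Stard4 (-0.41) in untreated VII-VIII over IV-VI, Soat1 in Venus over untreated (-0.41), and Stard4 in Venus VII-VIII over IV-VI (-0.43) and I-III over IX-XII (0.21); and, with median scaling, Soat1 (0.4), Sqle (0.17) and Stard4 (0.24) in vehicle over WT.

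Leaving out 1 array gave 21 to 22 higher and 2 to 3 lower in sorted WT over testes, 8 to 20 higher and 0 to 8 lower in N3KO over WT, 4 higher and 11 to 13 lower in vehicle over WT, and 2 to 4 higher and 15 to 22 lower in vehicle over N3KO; the lone array left is assumed to vary like the other groups. In untreated tubules it gave 13 to 19 for the F test, 0 to 2 higher and 1 to 2 lower in IV-VI over I-III, 6 to 8 higher and 2 to 3 lower in VII-VIII over IV-VI, 2 to 6 higher and 4 to 7 lower in IX-XII over VII-VIII, and 2 to 5 higher and 1 to 8 lower in I-III over IX-XII. It gave 1 to 5 lower with dnRARa on average, 0 in IX-XII, 11 to 12 higher and 6 to 8 lower in Venus over untreated, and in Venus tubules 11 to 14 for the F test, 5 higher and 1 to 3 lower in VII-VIII over IV-VI, 1 to 4 higher and 2 lower in IX-XII over VII-VIII, and 2 higher and 5 lower in I-III over IX-XII. The dnRARa F test gave 12 to 13.

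With the replicate number as a block, 4 genes were higher in untreated IV-VI over I-III, 2 lower with dnRARa in IX-XII, 3 lower in Venus VII-VIII over IV-VI and 7 lower in Venus IX-XII over VII-VIII; the other counts stayed within 1.5 times those reported.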
